A study of Homo sapiens with 48 samples.

Results

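The genes described here encode the enzymes and the chaperone that modify and crosslink collagen: the prolyl 4-hydroxylase alpha subunits P4HA1, P4HA2 and P4HA3, the lysyl hydroxylases PLOD1, PLOD2 and PLOD3, the lysyl oxidases LOX, LOXL1 and LOXL2, and SERPINH1, the collagen chaperone also called HSP47. They were taken by symbol, 10 genes with 17 probes among 31426 symbols and 47323 probes on a bead array. Their messenger RNA was measured in 2 human prostate cancer lines held for 24 h at 37 °C at 1 of 6 oxygen levels (5, 2, 1, 0.5, 0.2 or 0%) in a hypoxia chamber. Each level had a control of its own in normoxia (95% air), with 2 arrays for every line, level and condition, 48 arrays in all. PC-3 was derived from a metastasis in bone, and 22Rv1 from a subline of the xenograft CWR22R; each was grown alone in RPMI-1640 with fetal bovine serum. The labels number the replicates but do not say that they were separate cultures, so p-values measure the spread between these arrays, which may be technical. A change in a minority of the cells and a change in all of them cannot be told apart in such bulk RNA.

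Collagen chains are hydroxylated in the endoplasmic reticulum before they fold. Prolyl 4-hydroxylase, a complex of an alpha subunit with P4HB, makes the hydroxyproline that holds the triple helix together, and the PLOD enzymes make the hydroxylysine from which sugars and stable crosslinks are built. SERPINH1 holds the folded procollagen until it leaves for the Golgi, and outside the cell LOX and its relatives oxidise lysine and hydroxylysine so that fibres become crosslinked. The hydroxylases consume molecular oxygen, and several of these genes, P4HA1, P4HA2, PLOD2 and LOX among them, are known targets of the hypoxia-inducible transcription factors, which bind DNA at a core of the letters ACGTG or GCGTG.

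The promoter windows of the 8 genes that could be tested are printed because 5 of them moved together in both lines. Each runs from 250 bases before to 50 bases after a transcription start in RefSeq, build GRCh38.p14, read 5′ to 3′ on the gene's strand, with ACGTG and GCGTG (or their reverse complements CACGT and CACGC) in capitals. RefSeq windows were matched by symbol for 8 of the 10 genes. The windows lie at chr10:73096817-73097116 (minus strand) for P4HA1, chr5:132227042-132227341 (minus) for P4HA2, chr1:11934467-11934766 (plus) for PLOD1, chr3:146161135-146161434 (minus) for PLOD2, chr7:101217532-101217831 (minus) for PLOD3, chr5:122078210-122078509 (minus) for LOX, chr15:73926212-73926511 (plus) for LOXL1 and chr11:75562003-75562302 (plus) for SERPINH1.
P4HA1: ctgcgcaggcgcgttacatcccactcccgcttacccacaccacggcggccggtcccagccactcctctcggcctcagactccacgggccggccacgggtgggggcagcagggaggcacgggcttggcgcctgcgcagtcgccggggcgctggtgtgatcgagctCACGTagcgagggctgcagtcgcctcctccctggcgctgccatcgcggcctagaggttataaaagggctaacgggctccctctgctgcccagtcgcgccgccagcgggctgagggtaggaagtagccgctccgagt
P4HA2: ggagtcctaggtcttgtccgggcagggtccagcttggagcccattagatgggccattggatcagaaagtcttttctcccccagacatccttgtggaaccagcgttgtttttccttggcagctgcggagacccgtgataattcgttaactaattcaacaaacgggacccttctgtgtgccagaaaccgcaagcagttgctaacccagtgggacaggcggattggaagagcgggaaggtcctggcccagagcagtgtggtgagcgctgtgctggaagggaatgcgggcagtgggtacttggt
PLOD1: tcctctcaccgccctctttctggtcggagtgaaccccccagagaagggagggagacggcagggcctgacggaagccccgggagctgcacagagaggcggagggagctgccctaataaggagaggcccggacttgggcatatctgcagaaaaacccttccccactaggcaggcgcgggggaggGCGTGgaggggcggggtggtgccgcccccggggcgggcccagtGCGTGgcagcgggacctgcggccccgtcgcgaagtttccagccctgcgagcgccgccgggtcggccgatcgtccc
PLOD2: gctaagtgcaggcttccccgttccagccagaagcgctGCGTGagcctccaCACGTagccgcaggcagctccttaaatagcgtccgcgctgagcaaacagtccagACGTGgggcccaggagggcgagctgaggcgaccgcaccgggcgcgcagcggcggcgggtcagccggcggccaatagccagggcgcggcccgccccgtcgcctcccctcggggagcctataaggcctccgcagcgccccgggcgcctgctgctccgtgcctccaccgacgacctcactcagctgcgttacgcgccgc
PLOD3: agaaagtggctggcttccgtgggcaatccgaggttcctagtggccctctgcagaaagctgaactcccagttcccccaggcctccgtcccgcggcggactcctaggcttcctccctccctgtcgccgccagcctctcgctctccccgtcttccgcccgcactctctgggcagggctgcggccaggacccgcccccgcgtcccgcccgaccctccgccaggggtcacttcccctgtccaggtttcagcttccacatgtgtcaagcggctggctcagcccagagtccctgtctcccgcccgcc
LOX: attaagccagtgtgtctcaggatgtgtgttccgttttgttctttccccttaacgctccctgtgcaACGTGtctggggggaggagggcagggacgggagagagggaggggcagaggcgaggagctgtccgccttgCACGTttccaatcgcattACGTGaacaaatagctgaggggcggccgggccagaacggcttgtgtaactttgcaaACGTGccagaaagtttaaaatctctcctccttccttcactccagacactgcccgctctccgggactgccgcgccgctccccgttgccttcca
LOXL1: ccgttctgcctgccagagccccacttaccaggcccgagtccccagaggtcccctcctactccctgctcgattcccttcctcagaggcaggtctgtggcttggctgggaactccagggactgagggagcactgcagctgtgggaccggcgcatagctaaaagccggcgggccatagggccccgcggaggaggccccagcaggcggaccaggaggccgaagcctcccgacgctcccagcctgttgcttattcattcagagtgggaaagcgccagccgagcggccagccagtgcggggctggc
SERPINH1: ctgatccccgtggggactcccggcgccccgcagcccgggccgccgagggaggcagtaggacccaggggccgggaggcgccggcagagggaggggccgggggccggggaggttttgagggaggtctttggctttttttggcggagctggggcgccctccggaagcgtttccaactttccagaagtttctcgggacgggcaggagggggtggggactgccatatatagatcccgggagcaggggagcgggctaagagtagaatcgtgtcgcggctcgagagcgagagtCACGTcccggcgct

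LOX held 4 ACGTG sites in its window, the farthest beginning 185 bases before the start and the nearest 42 before it. PLOD2 held 2 ACGTG sites and 1 GCGTG site, P4HA1 held 1 ACGTG site beginning 86 bases before the start, and PLOD1 held 2 GCGTG sites and 0 ACGTG sites. SERPINH1 held 1 ACGTG site beginning at base 37 counted from the start. Its rise passed the test in PC-3 and not in 22Rv1, but the difference between the lines did not pass (limma adjusted p = 0.24). The windows of P4HA2, which rose in both lines, of PLOD3 and of LOXL1 held 0 of either, and the P4HA2 window lies inside the annotated gene, whose farthest 5′ base in RefSeq is 132227853. Among all 35116 windows of this length, 21.4% held ACGTG and 36.5% held GCGTG, and 48.4% held one or the other. These matches describe letters in a window and were not tested for binding.

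On each array a probe counts as detected where its detection p is under 0.01, and a gene was tested where a probe was detected on at least 2 arrays. That left 8 of the 10 genes and 12 of the 17 probes. P4HA3 and LOXL2 have 1 probe each, detected on 0 of 48 arrays, so neither line gave a level for them. P4HA1, P4HA2, PLOD1, PLOD2, PLOD3 and SERPINH1 were detected on all 12 hypoxia and all 12 normoxia arrays of both lines. LOX was detected on 0 of 12 normoxia arrays in each line, on 11 of 12 hypoxia arrays of PC-3 and on 10 of 12 of 22Rv1. LOX thus entered the tests through its hypoxia arrays alone, so its rise is in part built into that filter. Its p-values, and its place in every count of genes given below, carry this limit. LOXL1 was detected on all 24 arrays of PC-3 and on 0 of 24 of 22Rv1 by 1 of its 3 probes, the only one kept.

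Levels are log2 normalized intensities, and a change is the hypoxia mean minus the mean of the level's own controls. The standard errors (SE) and p-values come from limma fitted across 16438 genes. The p-values were adjusted by Benjamini-Hochberg over those genes, with a threshold of 0.05. Between 13750 and 16494 probes (29.1 to 34.9%) were detected per array. The range was 13750 to 16121 on PC-3 hypoxia arrays and 14062 to 16016 on their controls. It was 14386 to 16494 on 22Rv1 hypoxia arrays and 13995 to 16146 on their controls. The prostate epithelial genes KLK2 and FOLH1 were detected on 24 of 24 arrays of 22Rv1 and 0 of 24 of PC-3, while KLK3 was detected on 0 of 48. Of 6 genes commonly used to check oxygen deprivation (VEGFA, BNIP3, NDRG1, SLC2A1, ADM and CA9), 6 rose in PC-3 and 5 in 22Rv1. In PC-3 10.7% of all genes tested rose on the mean over levels and 13.3% fell, and in 22Rv1 19.8% rose and 22.8% fell. CA9 was detected on 0 of 12 normoxia and 5 of 12 hypoxia arrays of PC-3, so its rise there lies near background. It was detected on 0 arrays of 22Rv1. Of 8 fibroblast markers 1 was measurable, LUM, detected on 16 of 24 arrays of PC-3 and on 0 of 22Rv1. PDGFRB, THY1 and COL3A1 were detected on 0 of 48. Of 8 genes known to be high in PC-3, 7 were measured. With hypoxia 6 of them rose and 0 fell in 22Rv1, and 3 rose and 1 fell in PC-3. Their summed log2 level there ranged from 9.5 to 10.06 in normoxia and from 9.84 to 11.29 in hypoxia, against 14.21 to 14.65 in PC-3. CAV1 was detected on 0 of 12 normoxia and 5 of 12 hypoxia arrays of 22Rv1, and TGFBI on 0 of 24. Their part in the 22Rv1 results was not tested.

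The deposited tables disagree on 2 arrays: replicate 2 of 22Rv1 at 0.2% O2, where the table used here calls hypoxia what the other calls normoxia and the reverse. On the other 46 arrays the tables give the same label. On the array called hypoxia here P4HA1 stood at 9.51, PLOD1 at 11.04 and LOX, detected, at 6.49. On the array called normoxia here P4HA1 stood at 7.09, PLOD1 at 9.11 and LOX, not detected, at 4.46. These are genes under study, and which labels are right was not tested. Results for 22Rv1 at 0.2% rest in part on the 2 disputed arrays, and calls at other levels depend on their labels through the shared estimate of the spread. With the labels exchanged, the 22Rv1 calls at 2% of P4HA1 (limma adjusted p = 0.071), P4HA2 (0.19) and PLOD2 (0.075) were lost. That of P4HA1 at 5% was lost too, while these changes themselves stayed the same. For P4HA1, P4HA2, PLOD1 and PLOD2 the changes and the line differences in change at 0.2% are given with and without the disputed arrays. Differences in level between the hypoxia arrays of the lines are given with them only.

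In PC-3 the prolyl hydroxylases P4HA1 and P4HA2, the lysyl hydroxylases PLOD1 and PLOD2, LOX, LOXL1 and SERPINH1 rose on the mean over the 6 levels, and in 22Rv1 P4HA1, P4HA2, PLOD1, PLOD2 and LOX did, by more. That is 7 of 8 genes in PC-3, where 10.7% of all genes tested rose, and 5 of 8 in 22Rv1, where 19.8% did. Both counts include LOX, which passed the detection filter through its hypoxia arrays alone. In both lines 0 of 8 fell on the mean, where 13.3% of all genes tested fell in PC-3 and 22.8% in 22Rv1. PLOD3, the member of the lysyl hydroxylase family that also carries glycosyltransferase activity, passed the test in neither line. The median change of the 8 genes was 0.87 in PC-3 and 2.08 in 22Rv1, against a median of -0.01 over all genes tested in each line. LOX enters these medians with a change from controls in which it was not detected; with LOX at its lower bound they were 0.70 and 1.78. The 22Rv1 median also includes LOXL1 at -0.14, a value at background, since LOXL1 was detected on 0 arrays of that line. Among 16438 genes ordered by their mean change, P4HA2 stood 34th, PLOD2 86th, P4HA1 94th and PLOD1 195th from the top in PC-3, and P4HA1 13th, P4HA2 20th, PLOD2 42nd and PLOD1 53rd in 22Rv1.

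**Figure D1:**
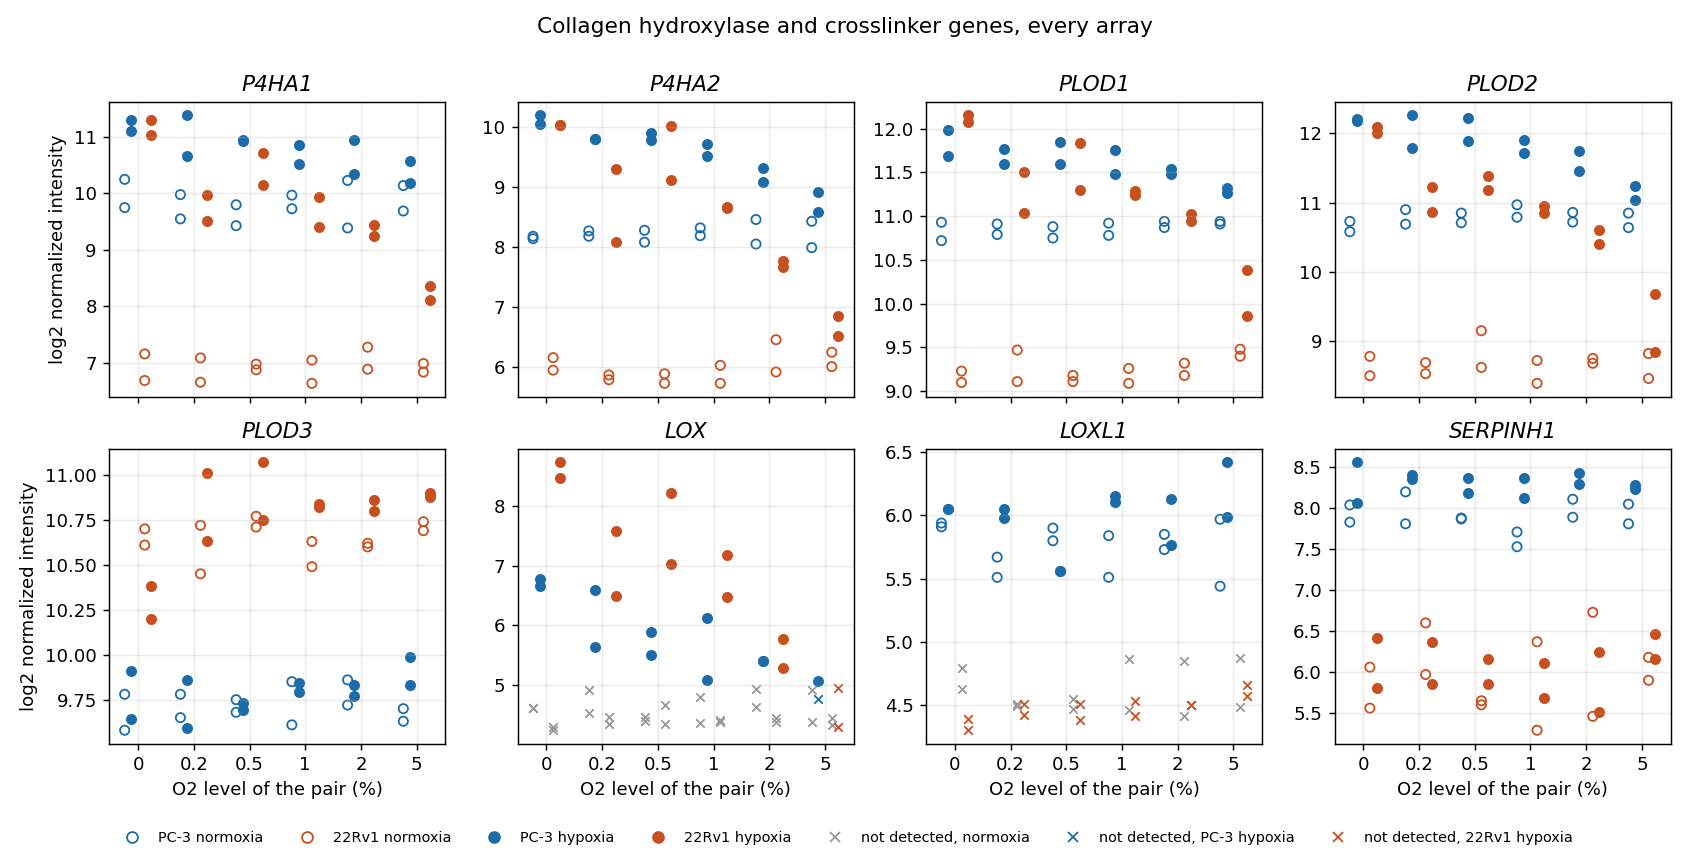
Log2 normalized intensity of the 8 tested genes on every array (vertical axis, a separate scale for each gene) by the O2 level of the pair in percent (horizontal axis). Open circles are normoxia, filled circles hypoxia, blue PC-3 and orange 22Rv1, and crosses are arrays on which the gene was not detected; P4HA1, P4HA2, PLOD1 and PLOD2 start lower in 22Rv1 normoxia and come level with PC-3 at 0% O2, LOX is seen in hypoxia alone, and LOXL1 in PC-3 alone.

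P4HA1, the most widely expressed alpha subunit of the prolyl hydroxylase, rose in both lines. In PC-3 the 12 normoxia arrays ran from 9.39 through a median of 9.78 to 10.25 and the 12 hypoxia arrays from 10.18 through 10.9 to 11.38. The groups overlapped in PC-3, although all 12 pairs of arrays were higher in hypoxia, with a mean change of 0.99 ± 0.11 (SE, 1.98-fold, limma adjusted p = 2.8e-08). In 22Rv1 normoxia ran from 6.64 through 6.94 to 7.28 and hypoxia from 8.11 through 9.72 to 11.3, with no overlap and a mean change of 2.84 ± 0.11 (7.14-fold, limma adjusted p = 4e-20).

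By level, replicates 1 and 2 of P4HA1 in PC-3 stood at 11.11 and 11.3 at 0% O2 against 9.75 and 10.25 in their controls. The hypoxia values were 10.67 and 11.38 at 0.2%, 10.93 and 10.95 at 0.5%, 10.52 and 10.86 at 1%, 10.35 and 10.95 at 2% and 10.18 and 10.57 at 5%. Every pair lay above its own controls. The change passed the test at 0, 0.2 and 0.5% (1.2, 1.26 and 1.33 ± 0.27, adjusted p = 0.0036, 0.0041 and 0.0029) and not at 1, 2 or 5% (0.84, 0.84 and 0.46, limma adjusted p = 0.15, 0.33 and 1). With the replicate number as a block it also passed at 1% (adjusted p = 0.00061) and 2% (0.0015). Single arrays carried the PC-3 calls: that at 0% was lost without replicate 2 of hypoxia (adjusted p = 0.053) or replicate 1 of its control (0.093), that at 0.2% likewise (0.16 and 0.13), and that at 0.5% without replicate 1 of the control (0.083). The call at 0.5% was also lost with median centring (0.91, adjusted p = 0.072). In 22Rv1 the hypoxia arrays stood at 11.03 and 11.3 at 0%, 9.97 and 9.51 at 0.2%, 10.72 and 10.15 at 0.5%, 9.41 and 9.93 at 1%, 9.25 and 9.44 at 2% and 8.37 and 8.11 at 5%. P4HA1 was the one gene of the 8 that passed the test at every level in 22Rv1, with changes of 4.24, 2.87, 3.5, 2.83, 2.26 and 1.33 ± 0.27 from 0 to 5%. The call at 5% (limma adjusted p = 0.035) was lost under several other settings, among them median centring (1.06, adjusted p = 0.71), a fit of each line alone (adjusted p = 0.09), and when any 1 of its 4 arrays was left out (0.055 to 0.94).

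P4HA2, a second alpha subunit of the same enzyme, rose 2.54-fold in PC-3 and 6.01-fold in 22Rv1 on the mean. In PC-3 normoxia ran from 7.99 through 8.18 to 8.46 and hypoxia from 8.58 through 9.75 to 10.2. In 22Rv1 normoxia ran from 5.72 through 5.93 to 6.45 and hypoxia from 6.51 through 8.66 to 10.04. Neither line showed any overlap of its 12 hypoxia and 12 normoxia arrays, and the mean changes were 1.35 ± 0.10 (limma adjusted p = 7.5e-12) and 2.59 ± 0.10 (6.3e-20). At 0% O2 the PC-3 arrays stood at 10.2 and 10.05 and the 22Rv1 arrays at 10.04 and 10.04, while their controls stood at 8.14 and 8.18 and at 6.15 and 5.94. The 22Rv1 change was thus 4 ± 0.25 (16-fold) at 0%, and it was 2.87, 3.77, 2.79, 1.53 and 0.56 at the levels from 0.2 up to 5%. It passed the test at every level from 2% down. In PC-3 it was 1.97, 1.59, 1.67, 1.36, 0.95 and 0.54, past the test from 0 to 1%, and with the replicate block at 2% as well (adjusted p = 0.0094). The PC-3 call at 1% was lost without replicate 1 of hypoxia (adjusted p = 0.071) or replicate 2 of the control (0.06).

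P4HA2 has 3 probes that passed detection, 1 of which gave no level in 22Rv1. Probe ILMN_2381697 changed by 1.45 ± 0.10 in PC-3 and 2.66 ± 0.10 in 22Rv1, where it was detected on 9 of 12 normoxia arrays, close to the brightest probe, ILMN_1795778, which stands for the gene above. Probe ILMN_2280135 was detected on 3 of 12 normoxia and 11 of 12 hypoxia arrays of PC-3 and was higher in hypoxia there (limma adjusted p = 3.8e-13 among all probes); since 9 of the 12 controls were not above background, its change of 1.05 is against controls mostly at background. It was detected on 0 of 24 arrays of 22Rv1, so how it moved there was not measured. The single probe of P4HA1 other than the one used, ILMN_1747442, was detected on 0 of 48 arrays.

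**Figure D2:**
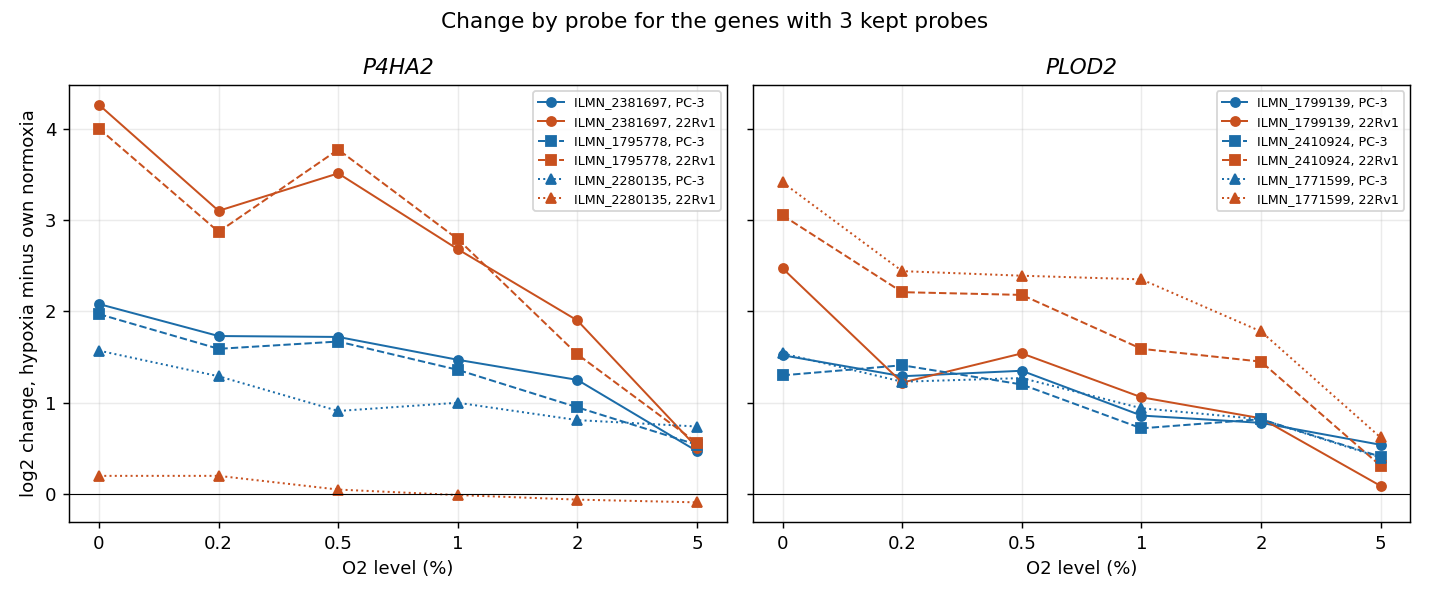
Log2 change from own normoxia (vertical axis) at each O2 level in percent (horizontal axis) for the 3 kept probes of P4HA2 and of PLOD2, blue for PC-3 and orange for 22Rv1, without error bars. For P4HA2, the points of probe ILMN_2280135 near 0 in 22Rv1 show background, since it was detected on 0 arrays there. For PLOD2, probe ILMN_1799139 was detected on 0 of 12 normoxia arrays of 22Rv1, so its lower points there are against background and do not measure a smaller change.

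PLOD1, which hydroxylates lysine in the helical part of collagen, rose in both lines with the smallest SE among the 5 genes that rose in both. PC-3 normoxia ran from 10.72 through 10.9 to 10.94 and hypoxia from 11.27 through 11.6 to 11.98. The 22Rv1 normoxia arrays ran from 9.09 through 9.21 to 9.48 and hypoxia from 9.86 through 11.26 to 12.15. No hypoxia array overlapped the normoxia arrays of its line, and the mean changes were 0.75 ± 0.07 (1.68-fold, limma adjusted p = 1.2e-10) and 1.98 ± 0.07 (3.94-fold, 3.8e-22). By level the PC-3 changes were 1.01, 0.84, 0.91, 0.77, 0.61 and 0.37 ± 0.16 from 0 to 5%, past the test from 0 to 1%, though median centring ended the calls at 0.2, 0.5 and 1% (adjusted p = 0.1, 0.24 and 0.6). The call at 1% was also lost without replicate 1 of hypoxia (adjusted p = 0.25) or replicate 2 of the control (0.15). The 22Rv1 changes were 2.95, 1.99, 2.42, 2.09, 1.74 and 0.68 ± 0.16, past the test from 0 to 2%. With the replicate block PLOD1 also passed at 2% in PC-3 (adjusted p = 0.0039) and at 5% in 22Rv1 (0.0025), where leaving out replicate 2 of hypoxia also brought it past the test (0.94, adjusted p = 0.011).

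PLOD2 hydroxylates lysine in the telopeptides, the ends of the chain from which pyridinoline crosslinks form. Its PC-3 normoxia arrays ran from 10.58 through 10.76 to 10.97 and the hypoxia arrays from 11.04 through 11.84 to 12.26, without overlap. In 22Rv1 normoxia ran from 8.39 through 8.68 to 9.15 and hypoxia from 8.85 through 10.91 to 12.09, and replicate 2 at 5% O2 (8.85) lay inside the control range, although above its own control (8.46). The mean changes were 1.03 ± 0.08 (2.05-fold, limma adjusted p = 9.1e-12) in PC-3 and 2.17 ± 0.08 (4.49-fold, 7.6e-21) in 22Rv1. From 0 to 5% they were 1.54, 1.23, 1.27, 0.94, 0.82 and 0.40 ± 0.20 in PC-3 and 3.41, 2.44, 2.39, 2.35, 1.78 and 0.62 ± 0.20 in 22Rv1. The test was passed from 0 to 1% in PC-3 and from 0 to 2% in 22Rv1, and with the replicate block also at 2% in PC-3 (adjusted p = 0.00037) and at 5% in 22Rv1 (0.019). The PC-3 call at 1% was lost with median centring (0.79, adjusted p = 0.2) and when any 1 of its 4 arrays was left out (0.05 to 0.13), and without replicate 2 of hypoxia the 22Rv1 change at 5% passed (1.04, 0.016). The other PLOD2 probes rose as well. The mean change of ILMN_1799139 was 1.05 in PC-3. In 22Rv1 that probe was detected on 0 of 12 normoxia and 10 of 12 hypoxia arrays and passed the test (limma adjusted p = 1.3e-12 among all probes), with a size that was not measured. The mean change of ILMN_2410924 was 0.98 in PC-3 and 1.80 in 22Rv1, where 9 of 12 controls were detected.

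PLOD3 moved little in either line. Its PC-3 arrays ran from 9.58 to 9.86 in normoxia and from 9.59 to 9.99 in hypoxia, and its 22Rv1 arrays from 10.45 to 10.77 and from 10.2 to 11.07, overlapping in both. The mean changes were 0.07 ± 0.05 (limma adjusted p = 0.35) and 0.12 ± 0.05 (0.062, or 0.0095 with the replicate block). The exception was 22Rv1 at 0% O2, where the arrays stood at 10.38 and 10.2 against 10.7 and 10.61 and the gene fell by 0.36 on the log2 scale (SE 0.13, limma adjusted p = 0.028), among 15.5% of all genes that fell there. Median centring (adjusted p = 0.37) and testing without the detection filter (0.054) ended that call, as did leaving out replicate 2 of hypoxia (0.23) or replicate 1 or 2 of the control (0.16 and 0.056). The fall at 0% also enters the 22Rv1 mean: over the other 5 levels the mean change was 0.21 (adjusted p = 0.0025). PLOD3 further passed on the 22Rv1 mean with both arrays of uncertain label left out (0.13, adjusted p = 0.036), with controls pooled (0.12, 0.037), and when replicate 2 of hypoxia at 0, 0.2 or 0.5% or replicate 1 of the 0.2% control was left out (adjusted p = 0.046, 0.013, 0.02 and 0.028).

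LOX, the extracellular oxidase that starts collagen and elastin crosslinking, went from not detected in normoxia to detected in hypoxia in both lines. In PC-3 the hypoxia arrays stood at 6.78 and 6.67 at 0% O2, 6.6 and 5.64 at 0.2%, 5.89 and 5.5 at 0.5%, 6.12 and 5.08 at 1%, 5.4 and 5.4 at 2% and 4.77 and 5.06 at 5%, while the 12 controls lay between 4.36 and 4.94. In 22Rv1 they stood at 8.74 and 8.47, 7.58 and 6.49, 8.22 and 7.04, 7.18 and 6.47, 5.78 and 5.28, and 4.95 and 4.3 in the same order, over controls of 4.24 to 4.67. At 5% O2 LOX was detected on 1 of 2 arrays of PC-3 and 0 of 2 of 22Rv1, and the groups overlapped there and nowhere else.

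Since the controls were not detected, the LOX fold is a lower bound, taken on each control array against its own signal or the lowest signal of any detected probe, whichever was higher. LOX was at least 1.57-fold higher in PC-3 on the mean (limma adjusted p = 2.8e-07) and at least 2.98-fold higher in 22Rv1 (6.5e-15), with 11 of 12 pairs higher in each. These p-values, and those by level, are not independent of the detection filter, which LOX passed through its hypoxia arrays alone. From 0 to 2% the bounds were 3.25, 1.99, 1.44, 1.47 and 1.2-fold in PC-3 and 10.8, 3.66, 5.74, 3.37 and 1.29-fold in 22Rv1. The test was passed at 0, 0.2 and 0.5% in PC-3 (adjusted p = 8.5e-05, 0.014 and 0.03) and from 0 to 1% in 22Rv1, and with the replicate block also at 1% in PC-3 (0.024) and at 2% in 22Rv1 (0.0059). The PC-3 calls at 0.2 and 0.5% were lost without background correction (adjusted p = 0.094 and 0.18). The call at 0.2% was lost without replicate 1 of hypoxia (adjusted p = 0.31) or replicate 1 or 2 of the control (0.051 and 0.14), and that at 0.5% with median centring (0.051) or without any 1 of its 4 arrays (0.065 to 0.21).

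LOXL1, a relative of LOX best known from elastic fibres, was measurable in PC-3 alone, and there by 1 of its 3 probes, ILMN_1734950. Probe ILMN_1708363 was detected on 1 of 48 arrays and ILMN_1701664 on 0, so every LOXL1 result rests on 1 probe. The PC-3 arrays of LOXL1 ran from 5.44 through 5.82 to 5.97 in normoxia and from 5.56 through 6.05 to 6.42 in hypoxia, overlapping, and 10 of 12 pairs were higher in hypoxia. The mean change of 0.23 ± 0.08 passed the test (1.17-fold, limma adjusted p = 0.023) but not with median centring (0.093), without the detection filter (0.08) or with 0.2% left out (0.11), and no single level passed. The call on the mean was also lost without replicate 2 of hypoxia at 2% (adjusted p = 0.063), replicate 1 of hypoxia at 5% (0.064), replicate 1 of the 1% control (0.06) or replicate 2 of the 5% control (0.07). At 0.5% O2 both hypoxia arrays, 5.56 and 5.56, lay below both controls, 5.8 and 5.9.

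SERPINH1 rose slightly in PC-3 and did not pass the test in 22Rv1. In PC-3 it ran from 7.53 through 7.88 to 8.2 in normoxia and from 8.06 through 8.33 to 8.56 in hypoxia, all 12 pairs higher, with a mean change of 0.41 ± 0.13 (1.33-fold, limma adjusted p = 0.017). In 22Rv1 it ran from 5.29 through 5.94 to 6.73 and from 5.51 through 6.13 to 6.46, 8 of 12 pairs higher, with a change of 0.10 ± 0.13 (adjusted p = 0.57). No single level passed in either line, where the PC-3 changes lay between 0.33 and 0.63 and the 22Rv1 changes between -0.22 and 0.38, all with an SE of 0.32.

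Counted by level, 5, 5, 5, 3, 0 and 0 of the 8 genes rose in PC-3 from 0 to 5% O2, against 4.35, 2.71, 2.42, 1.16, 0.292 and 0.00608% of all genes tested. None of the 8 fell in PC-3, where 4.51, 2.03, 1.66, 0.237, 0 and 0% of all genes tested fell. In 22Rv1 5, 5, 5, 5, 4 and 1 rose, against 13.6, 5.78, 13, 7.45, 2.85 and 0.0852%. There 1 of the 8 fell at 0% and none at the other levels, against 15.5, 5.18, 15, 7.09, 1.28 and 0.00608% of all genes tested. Complete separation of 12 hypoxia from 12 normoxia arrays was seen for P4HA2, PLOD1 and PLOD2 in PC-3 (1.27% of all genes tested, higher) and for P4HA1, P4HA2 and PLOD1 in 22Rv1 (0.7%). In 22Rv1 at 0.2%, leaving out both arrays of uncertain label gave changes of 3.31 for P4HA1, 3.44 for P4HA2, 2.04 for PLOD1 and 2.69 for PLOD2, with LOX still past the test (adjusted p = 1.3e-05). With the other table's labels for those arrays the changes were 0.45, 0.57, 0.06 and 0.25, and none of the 5 genes passed at that level (adjusted p = 1 for each), while all 5 still passed on the 22Rv1 mean (adjusted p between 1.5e-08 and 1.3e-07).

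**Figure D3:**
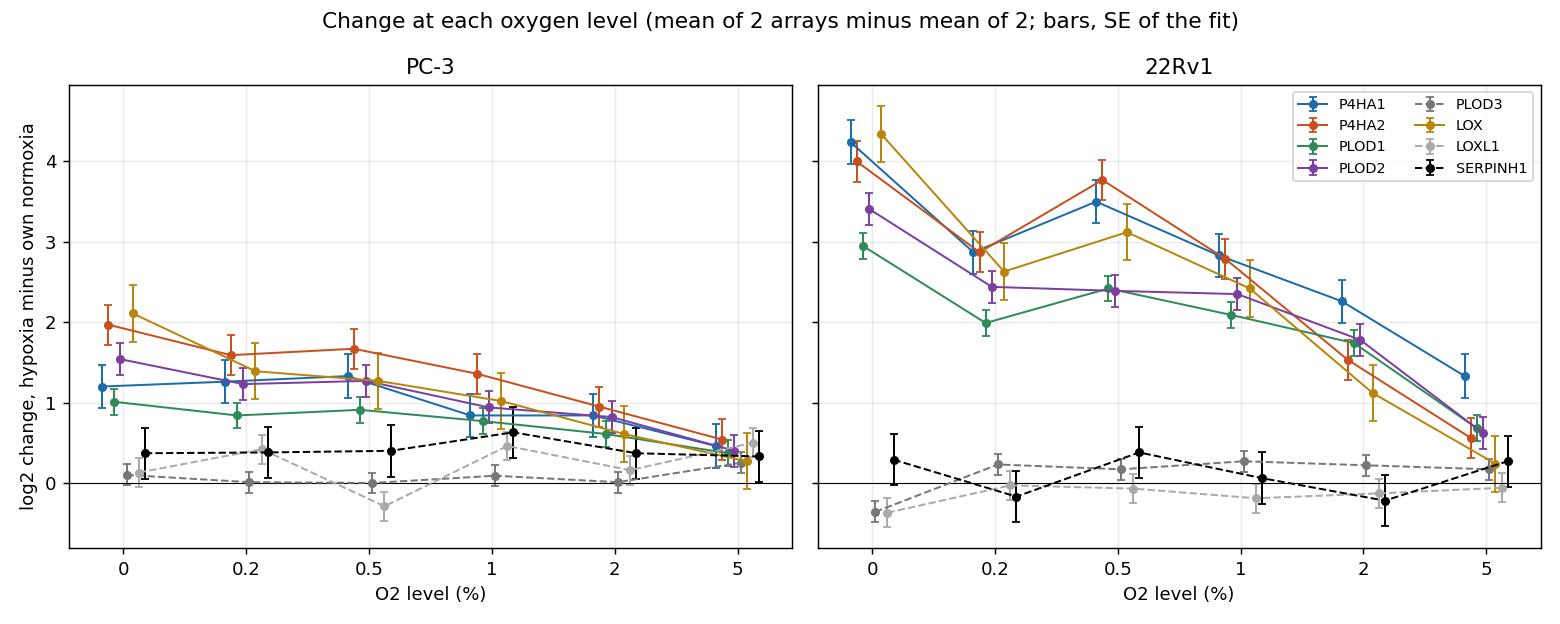
Log2 change from own normoxia (vertical axis) at each O2 level in percent (horizontal axis) for the 8 tested genes, PC-3 on the left and 22Rv1 on the right; points are the mean of 2 hypoxia arrays minus the mean of 2 controls and bars the SE of the fit. Solid lines are the 5 genes that rose in both lines and dashed lines PLOD3, LOXL1 and SERPINH1; LOX is drawn against controls in which it was not detected, as is LOXL1 in 22Rv1 throughout.

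Whether the response grew as oxygen fell was tested as a slope over the 6 levels taken as equal steps from 5 to 0%. P4HA2 gained 0.27 ± 0.06 per step in PC-3 (limma adjusted p = 0.014) and PLOD2 0.21 ± 0.05 (0.013), and LOX passed as well (0.028), 3 of 8 genes where 0.949% of all genes tested rose. With the replicate block 5 of the 8 passed, P4HA1 (adjusted p = 0.007) and PLOD1 (0.011) being added. Without 0% O2, 0 of the 8 passed, and without replicate 1 of the PC-3 hypoxia arrays at 5% 0 did too. In 22Rv1 P4HA1 gained 0.49 ± 0.07, P4HA2 0.63 ± 0.06, PLOD1 0.35 ± 0.04 and PLOD2 0.45 ± 0.05 per step, all past the test with LOX (adjusted p between 8.4e-09 and 2.8e-06), 5 of 8 where 6.64% of all genes tested rose. With the other labels for the 2 disputed arrays the slopes of P4HA1 (0.28, adjusted p = 0.26), PLOD1 (0.19, 0.26) and PLOD2 (0.27, 0.18) no longer passed, while P4HA2 and LOX still did.

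Between neighbouring levels the only step at which a gene of the 8 passed the test was 0 against 0.2% in 22Rv1. There P4HA1 was 1.37 ± 0.39 higher at 0%, P4HA2 1.13 ± 0.36, PLOD1 0.96 ± 0.23 and PLOD2 0.97 ± 0.28, LOX also passed, and PLOD3 was lower at 0% (difference -0.60 ± 0.18). So 5 of 8 were higher and 1 lower, where 4.2% of all genes tested were higher and 3.8% lower. This step uses the arrays of uncertain label. With both left out PLOD1 and PLOD3 still passed and P4HA1 (0.93, adjusted p = 0.31), P4HA2 (0.56, 0.48), PLOD2 (0.72, 0.27) and LOX (0.34) did not. The call of P4HA2 (limma adjusted p = 0.046) was lost in 44 of 65 other settings, and without replicate 2 of 22Rv1 hypoxia at 0.2% its difference was 0.52 (adjusted p = 0.41). Leaving out single arrays of this step ended the other calls too, with adjusted p from 0.096 to 0.14 for P4HA1, 0.051 to 0.053 for PLOD1, 0.056 to 0.12 for PLOD2, 0.056 to 0.19 for LOX and 0.052 to 0.19 for PLOD3, and replicate 2 of 22Rv1 hypoxia at 0.2% was among those arrays for all but PLOD3. With the replicate block P4HA1 (adjusted p = 0.037), PLOD1 (0.00099) and PLOD2 (0.00099) also passed between 2 and 5% in 22Rv1. PLOD1 lay at the threshold there in the main fit (1.05 ± 0.23, limma adjusted p = 0.05). It passed in 12 of 65 other settings, among them array weights (0.011) and detection on at least 12 arrays (0.047). Neighbours in the middle of the order were not told apart. In 22Rv1 the change of P4HA2 at 0.2% minus that at 0.5% was -0.90 ± 0.36 (limma adjusted p = 0.48). Among the 6 control groups of each line, the F-test called 0 of the 8 genes in either line (unadjusted p from 0.5 to 1 in PC-3 and from 0.36 to 0.99 in 22Rv1). Over all genes limma called 0 after adjustment, with 283 in PC-3 and 557 in 22Rv1 at an unadjusted p under 0.05.

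The lines differed in how far these genes rose. The change in 22Rv1 exceeded that in PC-3 by 1.85 ± 0.16 for P4HA1, 1.24 ± 0.15 for P4HA2, 1.23 ± 0.09 for PLOD1 and 1.13 ± 0.11 for PLOD2 on the mean over levels. LOX differed the same way, but its controls were not detected in either line, so the size was not measured: it came to 1.2 here, 0.69 without background correction, and 0.71 and 0.57 in the second table with the first table's labels and with its own. All 5 passed the limma test of the difference (adjusted p between 6.4e-12 and 3.4e-05). These are 5 of 8 genes, where 11.2% of all genes tested had the larger change in 22Rv1. LOXL1, not detected in 22Rv1, was called the other way (-0.37 ± 0.11, adjusted p = 0.01, 11.5% of all genes tested). That difference includes the 22Rv1 value of -0.14, which lies at background. PLOD3 (0.04, 95% confidence interval -0.10 to 0.19) and SERPINH1 (-0.31, -0.68 to 0.06) did not pass, SERPINH1 passing with the replicate block (adjusted p = 0.045). By level 5, 3, 5, 4, 1 and 0 of the 8 had the larger change in 22Rv1 from 0 to 5% O2, against 6.58, 1.13, 4.64, 1.45, 0.237 and 0.00608% of all genes tested. With the other labels for the 2 arrays P4HA2 (0.86), PLOD2 (0.77) and LOX no longer passed (adjusted p = 0.067, 0.051 and 0.073), while P4HA1 (1.45) and PLOD1 (0.91) still did. In the second table with its own labels those of P4HA2 (0.39, adjusted p = 0.25) and PLOD2 (0.66, 0.066) were lost. With both arrays left out all 5 passed: the differences were 1.92 for P4HA1, 1.34 for P4HA2, 1.24 for PLOD1 and 1.18 for PLOD2. With the probes of a gene averaged, those not detected in 22Rv1 normoxia among them, the differences for P4HA2 and PLOD2 were 0.48 and 0.70, still past the test (adjusted p = 0.0012 and 1.4e-05).

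In normoxia the same hydroxylases stood lower in 22Rv1 than in PC-3. The difference, 22Rv1 minus PC-3, was -2.90 ± 0.11 for P4HA1, -2.24 ± 0.10 for P4HA2, -1.62 ± 0.07 for PLOD1, -2.10 ± 0.08 for PLOD2 and -1.95 ± 0.13 for SERPINH1. PLOD3 was higher in 22Rv1 by 0.93 ± 0.05. With LOXL1, detected in PC-3 alone, 6 of 8 genes were lower and 1 higher in 22Rv1, where 32.5% of all genes tested were lower and 39.3% higher (limma adjusted p from 3.7e-22 to 1.3e-17 for P4HA1, P4HA2, PLOD1, PLOD2 and PLOD3). LOX was not detected in normoxia in either line.

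At 0% O2 the levels of P4HA1, P4HA2, PLOD1 and PLOD2 in hypoxia were not told apart between the lines, whereas PLOD3 remained higher in 22Rv1. The difference between 22Rv1 and PC-3 hypoxia arrays, a comparison added after the values were seen, was -0.04 for P4HA1 (95% confidence interval -0.59 to 0.52), -0.08 for P4HA2 (-0.60 to 0.44), 0.28 for PLOD1 (-0.05 to 0.60) and -0.15 for PLOD2 (-0.55 to 0.25). None of these 4 passed the limma test, while PLOD3 did (0.52, 0.26 to 0.77, adjusted p = 0.00073), where 28.4% of all genes tested were higher and 24% lower in 22Rv1. At 5% O2 the differences were -2.13 for P4HA1, -2.07 for P4HA2, -1.18 for PLOD1 and -1.88 for PLOD2, all past the test, where 27.3% of all genes tested were higher and 23.7% lower. Between those ends the order was not even: P4HA1 differed by -1.28 at 0.2% and by -0.51 at 0.5%. LOX went the other way, higher in 22Rv1 than in PC-3 by 1.88 ± 0.35 at 0% (limma adjusted p = 2.4e-05), by 0.92 at 0.2%, by 1.93 at 0.5% and by 1.22 at 1%, with no difference past the test at 2 or 5%. SERPINH1 stayed lower in 22Rv1 at every level, with differences from -1.95 to -2.49. All differences at 0.2% O2 in this comparison include a 22Rv1 array of uncertain label and were not computed without it.

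**Figure D4:**
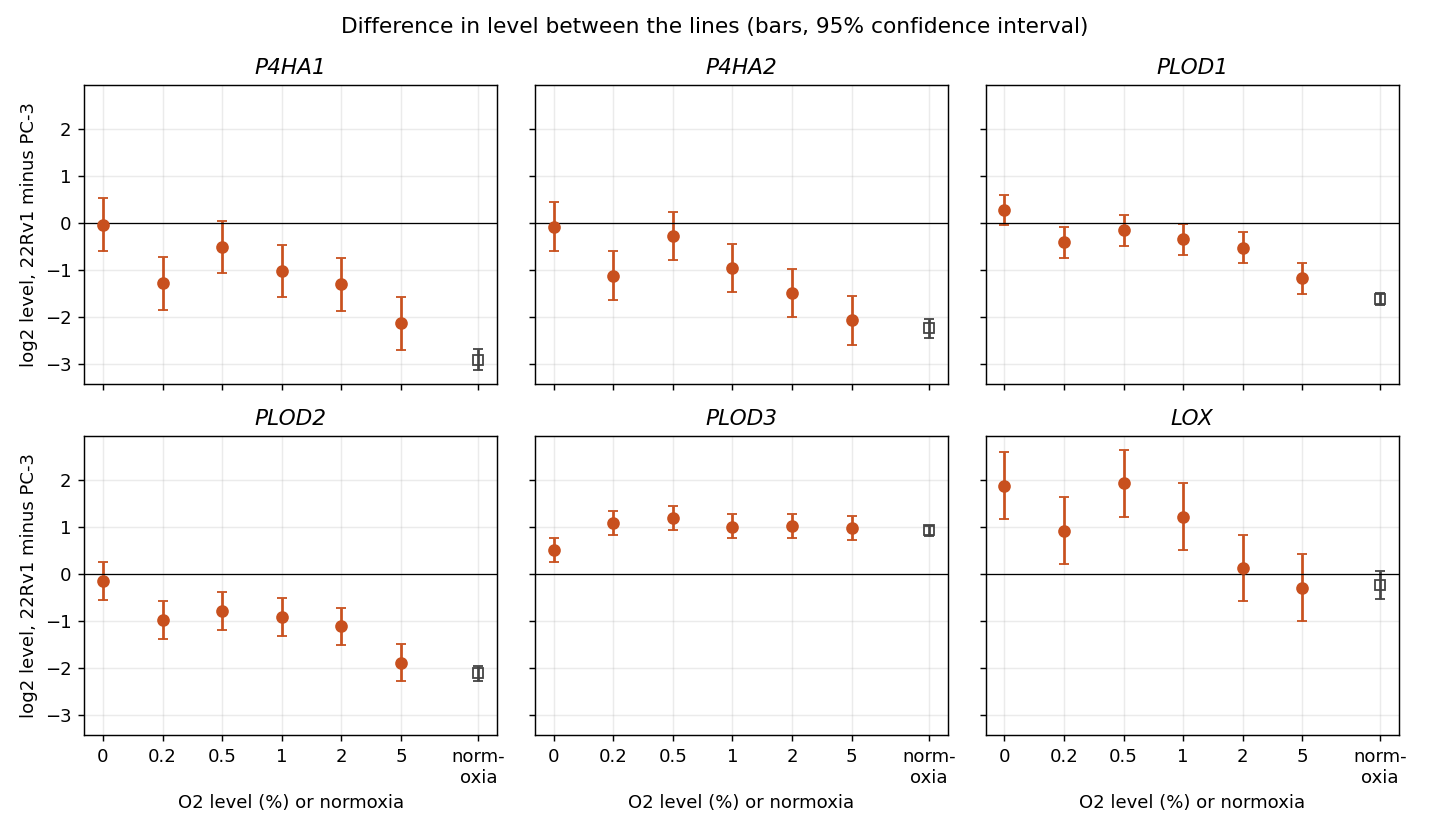
Log2 level in 22Rv1 minus log2 level in PC-3 (vertical axis) for 6 genes, in hypoxia at each O2 level in percent (filled circles) and in normoxia over all 12 controls of each line (open squares), with 95% confidence intervals. At 0% O2 the intervals of P4HA1, P4HA2, PLOD1 and PLOD2 include 0, whereas in normoxia they lie well below it; LOX was not detected in normoxia in either line, and PLOD3 is higher in 22Rv1 throughout.

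Across the 12 changes (2 lines by 6 levels) the risers ran closely together: Pearson's r was 0.99 between P4HA1 and PLOD1, 0.98 between P4HA2 and LOX and 0.98 between PLOD1 and PLOD2, and it lay between 0.9 and 0.99 for all pairs of the 5. Against PLOD3 their r lay between -0.45 and -0.27. These values describe 12 points that share arrays and normalization and carry the difference between the lines. Over all tested genes detected on at least 24 arrays, the changes most like those of P4HA1 were those of BHLHB2 (r = 0.992), PLOD1 itself (0.99) and the glycolytic hexokinase HK2 (0.988). For PLOD2 they were PFKFB3 (0.997), ALDOC (0.987) and SPAG4 (0.982), for P4HA2 MAFF (0.989), RNF24 (0.987) and OXSR1 (0.985), and for LOX GLRX, GBE1 (both 0.982) and PTTG1IP (0.981).

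Of 29 other genes of collagen modification, folding and processing, 26 were measured, and most stayed within the test's limits. In PC-3 3 rose and 0 fell, with a median change of 0, where 10.7% of all genes tested rose and 13.3% fell. In 22Rv1 5 rose and 3 fell, with a median change of -0.01, where 19.8% rose and 22.8% fell. The shares that rose were near those over all genes. P4HB, the beta subunit that pairs with P4HA1 or P4HA2, went from 11.38 to 11.79 in PC-3 (0.42 ± 0.06, limma adjusted p = 7e-07) and from 11.05 to 11.49 in 22Rv1 (0.44 ± 0.06, 1e-07). PCOLCE, an enhancer of procollagen C-proteinase, went from 6.62 to 7 in PC-3 (0.38 ± 0.11) and from 5.29 to 5.91 in 22Rv1 (0.63 ± 0.11, both past the test). In 22Rv1 PCOLCE was detected on 8 of 12 normoxia and 10 of 12 hypoxia arrays, so part of its change there is against background. Its relative PCOLCE2 was 0.38 ± 0.08 higher in 22Rv1 hypoxia (adjusted p = 0.00025). COLGALT1 (named GLT25D1 on the array), which adds galactose to hydroxylysine, fell by 0.39 on the log2 scale in 22Rv1 (SE 0.06, limma adjusted p = 4e-06) and not past the test in PC-3 (-0.09, 0.35). Of 43 collagen chain genes 23 were measured, of which 11 rose and 0 fell in PC-3, against the same 10.7 and 13.3% of all genes tested. In 22Rv1 5 rose and 1 fell, a share of rises near the 19.8% over all genes. Detection limits this count: of the 23 chains, 6 were detected on at least 12 of 24 arrays of 22Rv1 and 7 on 0. In PC-3 16 were detected on at least 12 of 24 arrays and 2 on 0. The 1 that fell in 22Rv1, COL4A1, was detected on 0 arrays there, so its fall lies at background.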

How the data were processed

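Total RNA of 48 samples (miRNeasy kit) was labelled with biotin and read on Illumina bead arrays, per the labels' protocols. The authors deposited a table of bead intensity values with a detection p-value per probe and array, not normalized, and a second table of values of the same arrays. BeadStudio 3.1.3.0 is named in the submitters' processing notes; a genome build for the probes is not stated there. Columns lettered A and B in the intensity table were read as replicates 1 and 2.

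From these, limma 3.58.1 in R 4.3.3 gave neqc background correction (from the deposited detection p-value, offset 16), quantile normalization and log2 values. Probes detected (p under 0.01) on at least 2 arrays were kept, the brightest probe stood for a symbol, and 16438 genes entered 1 fit of 24 group means (lmFit, eBayes with a variance trend, 24 residual degrees of freedom). Depth does not apply to arrays, whose number limits the precision. Replicate numbers paired the samples: the deviations of same-numbered hypoxia and control arrays from their group means correlated between 0.326 and 0.471 (PC-3) and between 0.18 and 0.447 (22Rv1), so a blocked value is given where it changes a call. All 10 genes were named whatever their values; from the list of 29 related genes the 4 with the largest change past the test were named, and similar genes by the highest Pearson correlation, unannotated symbols passed over. The genes and lists were chosen with earlier results of these data known. The fit was tested on simulated data. Alternatives covered background, scaling, filter, probe rule, variance model, controls, labels and each array in turn. Promoters came from RefSeq GRCh38.p14; figures were drawn with matplotlib.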

Additional observations from a re-analysis of the deposited data

Results flagged for a closer look

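The results marked here are those in which the change from normoxia differed between the lines by the limma test of the difference itself, fitted across 16438 genes; groups of 2 arrays are too small for a search for single outlying arrays. On the mean over levels, the change in 22Rv1 minus that in PC-3 was 1.85 for P4HA1, 1.24 for P4HA2, 1.23 for PLOD1, 1.13 for PLOD2, 1.2 for LOX and -0.37 for LOXL1. The sizes for LOX, here and by level, are against controls in which it was not detected in either line.

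P4HA1 differed by 3.04 at 0% O2, 1.61 at 0.2%, 2.17 at 0.5% and 1.99 at 1%. P4HA2 differed by 2.03 at 0%, 2.10 at 0.5% and 1.42 at 1%. PLOD1 differed by 1.94 at 0%, 1.15 at 0.2%, 1.5 at 0.5%, 1.33 at 1% and 1.13 at 2%. PLOD2 differed by 1.86 at 0%, 1.21 at 0.2%, 1.12 at 0.5% and 1.41 at 1%. LOX differed by 2.23 at 0% and 1.85 at 0.5%. LOXL1 was not detected on any array of 22Rv1, so its difference joins a PC-3 change of 0.23 to a 22Rv1 value of -0.14 that lies at background, and its size was not measured. With both arrays of uncertain label left out, the differences at 0.2% were 2.06 for P4HA1, 1.21 for PLOD1 and 1.46 for PLOD2. For P4HA2 the difference at 0.2% was 1.28 with these arrays, not past the test, and 1.86 without them.

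Leaving out 1 array ended several of these differences at single levels. At 0.2% O2 that of P4HA1 was lost without replicate 1 of 22Rv1 hypoxia (adjusted p = 0.17), of its control (0.13) or of PC-3 hypoxia (0.16), or replicate 2 of the PC-3 control (0.13). That of PLOD2 was lost without the same arrays (adjusted p = 0.13, 0.075, 0.12 and 0.085), and that of PLOD1 without replicate 1 of 22Rv1 hypoxia (0.06). At 0.5% PLOD2 was lost without replicate 1 of 22Rv1 hypoxia (adjusted p = 0.073) or of PC-3 hypoxia (0.052) or replicate 2 of the 22Rv1 control (0.09), and LOX without replicate 1 of 22Rv1 hypoxia (0.21), replicate 2 of its control (0.073) or replicate 2 of PC-3 hypoxia (0.076). P4HA2 at 1% was lost without any 1 of the arrays it compares (adjusted p = 0.051 to 0.15), except replicate 2 of the 22Rv1 control. PLOD1 at 2% was lost without any 1 of its own (0.057 to 0.12), except replicate 2 of 22Rv1 hypoxia and of its control.

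Other settings ended some of them too. With probes averaged, PLOD2 was lost at 0.2% (0.65, adjusted p = 0.31), 0.5% (0.76, 0.07) and 1% (0.83, 0.11), and P4HA2 at 1% (0.54, 0.36). Without background correction P4HA2 was lost at 1% (0.64, adjusted p = 0.29) and P4HA1 at 0.2% (1.07, 0.12), and both were also lost in the second table with the labels of the first (0.67 and 1.08, 0.26 and 0.11). Median centring ended the differences at 0.2% of P4HA1 (adjusted p = 0.2), PLOD1 (0.19) and PLOD2 (0.11), at 1% of P4HA2 (0.23) and PLOD1 (0.07) and at 2% of PLOD1 (0.71). Array weights ended those of P4HA1 (adjusted p = 0.12) and PLOD2 (0.089) at 0.2%.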

How the results depend on the processing

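The 13 counts of calls were recomputed under 19 planned or added settings and with each of the 48 arrays left out, the normalization kept. The second deposited table with its own labels (first value) and the exchange of the 2 disputed 22Rv1 labels in the first table (second value) moved calls at single levels from 18 to 5 and 3 in PC-3 and from 26 to 16 and 17 in 22Rv1, the slope from 3 to 0 and 0 in PC-3 and from 5 to 2 and 2 in 22Rv1, and calls on the line difference at single levels from 18 to 3 and 2; the exchange also took calls on the mean line difference from 6 to 3. Both turned the sign of the line difference at 0.2% O2, to -0.85 and -0.81 for P4HA1, -0.74 and -0.78 for PLOD1 and -0.95 and -0.97 for PLOD2. None of these reversed differences passed the test (limma adjusted p from 0.82 to 0.94), so a larger change in PC-3 was not shown. With both disputed arrays left out the differences were 2.06 for P4HA1, 1.21 for PLOD1 and 1.46 for PLOD2. The exchange left the PC-3 changes themselves as they were (1.2 for P4HA1 and 1.01 for PLOD1 at 0% O2). Only their calls moved, since the 48 arrays share 1 estimate of the spread. The cause of the disagreement between the tables was not tested. The PC-3 slope count of 3 became 1 with median centring, 0 without 0% O2, and 5 with controls pooled or with the replicate block. The count of 6 between neighbouring levels in 22Rv1 became 2 with array weights, 2 with each line fitted alone, 3 without both disputed arrays and 14 with controls pooled. Causes were not tested.

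With 1 array left out, counts ran from 6 to 7 (mean) and 15 to 20 (single levels) in PC-3, 5 to 6 and 25 to 28 in 22Rv1, 0 to 3 and 5 to 6 for the slope, 0 to 0 and 2 to 9 between neighbouring levels, 6 to 6 and 15 to 20 for the line difference (mean and single levels), 7 to 7 in normoxia and 0 to 0 among the controls of each line. The PC-3 slope count fell to 0 without replicate 1 of the 5% hypoxia arrays and to 1 without replicate 1 of 0% hypoxia, replicate 2 of the 5% controls or replicate 2 of the 0% controls. The 22Rv1 count between neighbouring levels fell to 3 without replicate 1 of 0% hypoxia and to 2 without replicate 1 of its controls, replicate 2 of 0% hypoxia or its control, or replicate 2 of 0.2% hypoxia or its control.

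Without background correction the mean change of LOX was 0.43 in PC-3 and 1.11 in 22Rv1 and the line difference was 0.60 for P4HA2 and 0.69 for LOX, all still past the test. In the second table with the labels of the first, LOX changed by 0.45 and 1.15. The replicate block changed the calls named in the report and, on the line difference, added PLOD3 at 0% (adjusted p = 0.012), P4HA2 at 0.2% (0.0058), LOX at 1% (0.02) and P4HA1 and PLOD2 at 2% (0.00024 and 0.0044); PLOD3 in 22Rv1 at 1% (0.032) and its slope (-0.08, 0.011) also passed. A block for slide or scan was not run, since the tables name none. Signal over background limits LOX and LOXL1.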
